A study of Mus musculus with 16 samples.

Results

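Pravastatin was set against untreated control in primary mouse hepatocytes on 8 of the 16 arrays of the study, chosen as the arrays whose labels name pravastatin as the treatment. Each array was hybridised with RNA of pravastatin-treated cells in one dye and RNA of untreated cells in the other, so that the treated and the control level of a gene were read from the same spot. The hepatocytes came from male C57Bl/J mice and were cultured in Williams Medium E. Treatment with 30 µM pravastatin began 48 h after plating and lasted 48 h, and the control cells stayed untreated for the same time. The treated RNA carried Alexa 647 on replicates 1 to 4 and Alexa 555 on replicates 5 to 8. The other 8 arrays set 100 µM SQ1 (the dose as the labels give it) against untreated cells in the same way and are used here for the shared error estimate and for a final comparison. The labels call the cultures biological replicates but do not say whether they came from separate mice, so the p-values measure the spread between these arrays. The sample numbers leave it possible that the same 8 control cultures served both drugs.

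Pravastatin is a statin, a drug that lowers the supply of mevalonate. Mevalonate feeds a common trunk that leads to farnesyl pyrophosphate, from where the path continues to squalene and cholesterol or branches to the prenyl groups that anchor small GTPases in membranes. When sterols run low, SREBP-2 moves from the endoplasmic reticulum to the nucleus and activates the genes of cholesterol synthesis. The liver is the main site of action of statins, and pravastatin, a hydrophilic statin, enters hepatocytes through organic anion transporters. Hepatocytes taken into culture gradually lose the expression of liver-specific genes.

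Of the 20659 genes with a named probe, 15049 were bright enough to be tested. Between 61.3% and 69.6% of probes were well above background per channel. The median standard error was 0.04 on the log2 scale, a precision set by there being 8 arrays. At an adjusted p of 0.05 (limma with Benjamini-Hochberg adjustment), 10038 genes differed between treated and control RNA, 66.7% of those tested. Of these, 4649 rose (30.9% of the genes tested) and 5389 fell (35.8%), shares to set beside the list counts below. Rises made up 46.3% of the calls. This share depended on the scaling, at 56.8% with Agilent's own ratios or the deposited series table and 61% with median centring. Changes of at least 2-fold were called in 131 genes that rose (0.87%) and 604 that fell (4.01%). The treated and the control levels of the 8 arrays did not overlap in 3047 genes (20.2%), and 6513 called genes (43.3%) had the same sign on all 8 arrays. The arrays lay on 2 slides, numbered 3 and 4 here, with replicates 1, 2, 5 and 6 on slide 3 and the rest on slide 4. Within slide 3 the call was made for 9683 genes (64.3%), within slide 4 for 8647 (57.5%), and with the slide as a random block for 8264, of which 3737 rose and 4527 fell.

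Genes of the mevalonate trunk rose. Of the 7 genes from acetyl-CoA to isopentenyl pyrophosphate and its isomer, 6 rose, none fell and 1 was not called. The median log2 fold change was 0.60, against -0.01 over all genes tested. Idi1, the isomerase that makes dimethylallyl pyrophosphate, had log2 ratios with a lowest value of 0.26, a median of 0.52 and a highest of 1.45 (fold change 0.75 ± 0.13). Pmvk and Mvd, which act on mevalonate phosphates, rose by 0.61 ± 0.09 and 0.60 ± 0.07, and Mvk, mevalonate kinase, by 0.43 ± 0.08. For these 4 genes the treated and control channels did not overlap. Hmgcs1, a synthase early in the trunk (chosen after its values were seen), behaved differently, with ratios of -0.01, 0.21 and 1.04 at lowest, median and highest. Its channels overlapped, and its fold change of 0.38 ± 0.11 (adjusted p = 0.00469, limma) consisted of 0.12 on slide 3, not called there, and 0.64 on slide 4. Acat2, the thiolase of the first step, was not called (0.02 ± 0.04).

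The Hmgcs1 promoter is shown because it is the only one of the 6 promoters of this list at hand that held the sterol response element searched for, TCACNCCAC, in either orientation. The element, the site that SREBP binds in textbook examples, is in capitals and starts 137 bases before the gene's start. The window covers the 250 bases before the start at chr13:119690101-119690350, plus strand (RefSeq, GRCm38.p6).
Hmgcs1: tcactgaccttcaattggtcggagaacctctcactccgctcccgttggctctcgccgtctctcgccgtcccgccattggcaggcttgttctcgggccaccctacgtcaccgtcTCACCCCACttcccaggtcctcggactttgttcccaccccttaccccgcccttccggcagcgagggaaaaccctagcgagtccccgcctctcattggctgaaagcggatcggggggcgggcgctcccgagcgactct
These letters occurred in 1.05% of 32851 windows of this length, in none of the 9 windows of the squalene-to-cholesterol genes and in none of the 12 of the SREBP genes. They were in 1.3% of windows of genes tested. Of genes that rose at least 2-fold 1 of 91 windows held them (1.1%), and of those that fell at least 2-fold 10 of 463 (2.16%). The match describes the sequence and says nothing about binding in these cells.

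The steps from squalene to cholesterol mostly rose. Of 12 genes tested, 8 rose, 2 fell and 2 were not called, with a list median of 0.42. The 8 that rose were those from squalene synthase to the removal of methyl groups from the sterol ring. Cyp51, lanosterol demethylase, had log2 ratios of 0.38, 0.72 and 1.37 at lowest, median and highest (fold change 0.81 ± 0.10). Tm7sf2, a sterol reductase, rose by 0.77 ± 0.05 and Lss, which closes the sterol rings, by 0.68 ± 0.07. Nsdhl rose by 0.52 ± 0.07, Fdft1 (squalene synthase) by 0.48 ± 0.09, Msmo1 by 0.46 ± 0.08 and Hsd17b7 by 0.38 ± 0.05. Sqle, squalene epoxidase, rose by 0.33 ± 0.11, made up of 0.02 on slide 3, not called there, and 0.63 on slide 4. Ebp, the sterol isomerase, fell by 0.31 ± 0.05, a call that median centring ended while leaving 1 fall in the list. Sc5d (0.03 ± 0.07) and Dhcr7 (-0.06 ± 0.09) were not called.

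Every array of slide 4 showed a higher median for the trunk genes than any array of slide 3. The trunk median was 0.37 on slide 3 and 0.74 on slide 4, and 4 of its 7 genes differed between the slides at an adjusted p of 0.05. The squalene-to-cholesterol median was 0.26 and 0.65, with 6 of 12 genes differing, against 21.8% of all genes tested.

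**Figure D1:**
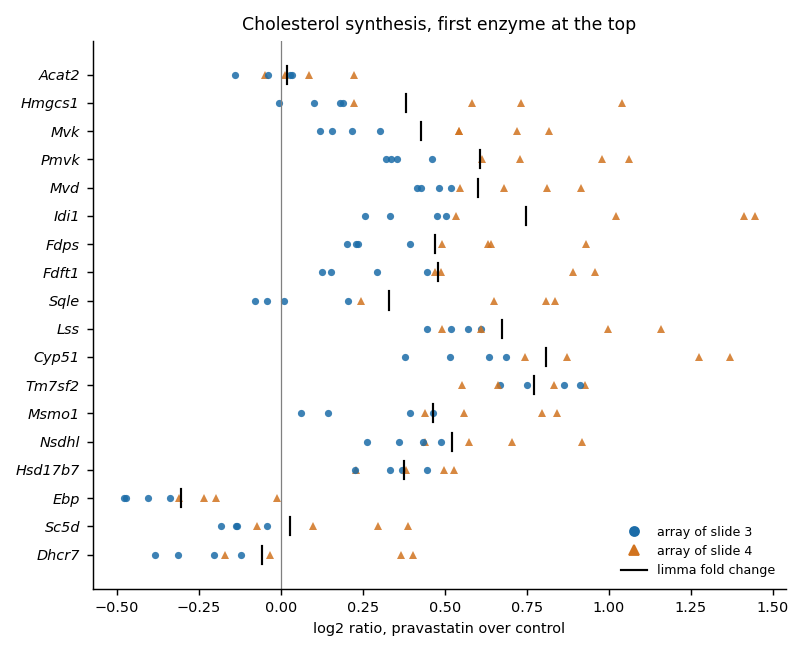
Log2 ratios of treated over control RNA (horizontal axis) for genes of cholesterol synthesis, with the first enzyme at the top; points are the 8 arrays, coloured by slide, and the bar is the limma log2 fold change. Idi1 lies between 0.26 and 1.45 and Cyp51 between 0.38 and 1.37 on the 8 arrays.

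The regulators of sterol balance moved in both directions. Of 20 genes of the SREBP machinery and lipoprotein uptake, 9 rose, 8 fell and 3 were not called, and their median of 0.02 changed sign on slide 3. With median centring 8 rose and 4 fell. Srebf2, which encodes SREBP-2, had ratios of 0.65, 0.69 and 0.93 (fold change 0.72 ± 0.04), with treated levels of 11.02 to 11.29 and control levels of 10.21 to 10.64. Srebf1, which encodes the isoform tied to fatty acid synthesis, went the opposite way, with ratios of -1.02, -0.77 and -0.50 (-0.75 ± 0.08). In both genes the channels did not overlap. Lpin1, a phosphatidate phosphatase, rose by 0.47 ± 0.06 and Mbtps2, the protease that makes the second cut in SREBP, by 0.42 ± 0.04. Npc2 and Npc1, which move cholesterol out of lysosomes, rose by 0.34 ± 0.03 and 0.31 ± 0.04. Insig1, which holds SREBP back and is itself an SREBP target, rose by 0.38 ± 0.13, with 0.03 on slide 3, not called, and 0.73 on slide 4, whereas its relative Insig2 fell by 0.60 ± 0.06. Scarb1, the receptor for high-density lipoprotein, fell by 0.67 ± 0.03.

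Genes of sterol efflux, many of them targets of the oxysterol receptor LXR, mostly fell. Of 14 tested, 10 fell, 2 rose and 2 were not called, with a median of -0.46. Abca1, the exporter that loads apolipoproteins with cholesterol, had ratios of -2.03, -1.79 and -1.52 (-1.78 ± 0.07). Abcg5, one partner of the pump that moves sterols into bile, fell by 2.05 ± 0.17, with a larger fall on slide 3 (-2.55) than on slide 4 (-1.54; adjusted p of the difference 7.09e-05). Its partner Abcg8 fell by 0.35 ± 0.06. Apoc1 fell by 2.23 ± 0.10, Apoe by 1.23 ± 0.07 and Nr1h3, which encodes LXR alpha, by 0.71 ± 0.04. The genes that rose were Arl4c (0.26 ± 0.06) and Nr1h2 (0.11 ± 0.03), which encodes LXR beta, and Soat1 and Pltp were not called.

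In fatty acid synthesis the genes of a pair of desaturases moved in opposite directions. Scd2, a desaturase that is low in adult liver, had ratios of 1.28, 1.51 and 1.81 (1.54 ± 0.07), and its treated levels of 15.58 to 16.13 lay above the control levels of 14.07 to 14.67. Scd1, the main desaturase of adult liver, had ratios of -2.49, -2.10 and -1.34 (-1.95 ± 0.14). The channels of both were apart on the 8 arrays, in opposite directions. Of the 21 genes of this list 7 rose, 7 fell and 7 were not called, and the median of -0.09 changed sign on slide 4. The share called was 66.7%, as over all genes tested. The counts ran in opposite directions by slide, with 3 higher and 10 lower on slide 3 and 9 higher and 6 lower on slide 4. Mlxipl, which encodes the carbohydrate sensor ChREBP, fell by 1.44 ± 0.12, Elovl2 by 1.12 ± 0.13 and Acaca by 0.99 ± 0.12. Fasn (-0.12 ± 0.13) and Acly (0.12 ± 0.07), which make the carbon chain and its precursor, were not called. Acss2, Fads2 and Tecr rose by 0.32 ± 0.09, 0.25 ± 0.05 and 0.17 ± 0.04, Acss2 not being called on slide 3. In triglyceride synthesis and lipid droplets 12 of 25 genes fell and 5 rose (9 rose with Agilent's ratios and 2 with the slide as a random block), led by the lipase Mgll (-2.19 ± 0.15), the acyltransferase Dgat2 (-1.34 ± 0.15) and the droplet proteins Plin5 (-1.13 ± 0.13) and G0s2 (-1.13 ± 0.14). Those that rose did so by at most 0.22 (Cidec, whose call was lost with the mean of its probes, at 0.04, with the slide or the scan day as a block, and on slide 3). The others were Pnpla2, Cidea, Plin3 and Abhd5, and Plin2, the main droplet coat protein of hepatocytes, was not called (-0.03 ± 0.04).

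Among 19 genes of the prenyl branch and the prenyltransferases, 8 rose, 5 fell and 6 were not called. The share called, 68.4%, was close to the 66.7% over all genes tested. With median centring 8 rose and none fell, and the median of the list's ratios was above 0 on all 8 arrays. The median of their fitted values was close to 0, at -0.0023, and turned positive with Agilent's ratios (0.08), with median centring (0.10), on each slide alone and without replicate 8. The largest rise was that of Chml, an escort protein that presents Rab proteins for geranylgeranylation, with ratios of 0.65, 0.76 and 0.93 (0.77 ± 0.03) and no overlap of the channels. Fdps, which makes farnesyl pyrophosphate and belongs to the SREBP targets, rose by 0.47 ± 0.07 and Ggps1, which makes geranylgeranyl pyrophosphate, by 0.31 ± 0.03. Both partners of farnesyltransferase were called in opposite directions, Fntb at 0.30 ± 0.04 and Fnta at -0.30 ± 0.04. The others that fell were the dolichol kinase gene Dolk (-0.24 ± 0.04), Pdss2, Coq2 and Zmpste24. None of the 5 falls was called with median centring, where Fnta was at -0.13 and Dolk at -0.12.

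Single genes of small GTPases and of their regulators moved in both directions. Rac3, a Rac GTPase, had ratios of 0.70, 1.24 and 1.41 (1.18 ± 0.07), with treated levels of 10.04 to 10.44 and control levels of 8.89 to 9.33. Arhgef2, an exchange factor that binds microtubules, rose by 0.74 ± 0.06, Cdc42ep5 by 0.71 ± 0.06, Rhoq by 0.64 ± 0.04 and Rac1 by 0.34 ± 0.06. Arhgap29, a GTPase-activating protein gene, fell by 0.67 ± 0.05 and Rhod by 0.47 ± 0.03. Rhoa was not called (0.10 ± 0.04). Of 38 Ras, Rab and other prenylated proteins 12 rose and 13 fell, shares close to those over all genes tested (30.9% higher, 35.8% lower). The counts were 11 and 6 with median centring and 7 and 12 with the slide as a random block. The list had a median of -0.06 that turned positive with Agilent's ratios (0.01), with median centring (0.10) and on slide 4. Lmnb2, lamin B2, stood apart with ratios of -2.60, -2.04 and -1.59 (-2.04 ± 0.12). The next falls were Rab4a (-0.78 ± 0.05), Rab9 (-0.58 ± 0.06) and Rab32 (-0.46 ± 0.04), and the largest rises were Ralb (0.70 ± 0.04) and Rras2 (0.62 ± 0.06).

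Of 35 SRF-responsive and actin genes 14 rose and 15 fell, and the median of 0.04 changed sign on slide 4. The counts were 17 and 10 with median centring and 8 and 15 on slide 4. The largest falls were those of Cnn1 (calponin) at -1.82 ± 0.10, Vil1 (villin) at -1.55 ± 0.13, Acta1 (skeletal muscle alpha-actin) at -1.37 ± 0.12 and Myl9 at -1.27 ± 0.12. Vcl (vinculin) rose by 0.63 ± 0.05 and Flna (filamin A) by 0.53 ± 0.08. Srf itself was not called (0.04 ± 0.04). Of 27 YAP and TEAD-responsive genes 11 rose and 5 fell (median 0.09), with 17 and 3 by Agilent's ratios and 13 and 2 with median centring. Ptpn14, a phosphatase that binds YAP, had ratios of 1.74, 1.97 and 2.0 (1.91 ± 0.05). Fjx1 rose by 0.85 ± 0.14, Tead1 by 0.44 ± 0.08, and the matricellular genes Ccn1 and Ccn2 by 0.43 ± 0.07 and 0.36 ± 0.10. The falls were those of Dlc1 (-0.56 ± 0.05), Birc5, Ddah1, Nuak2 and Yap1 (-0.10 ± 0.03), of which Dlc1 and Birc5 were also called with median centring.

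The largest changes of the experiment were falls in genes of the differentiated hepatocyte. Akr1c6, a hydroxysteroid dehydrogenase of liver, had log2 ratios of -6.64, -5.68 and -4.29 at lowest, median and highest (-5.64 ± 0.31). Its levels were 8.80 to 9.70 in treated RNA and 13.46 to 16.18 in control RNA. Cyp3a11, the main drug-metabolising P450 of the Cyp3a family in mouse liver, followed with ratios of -5.40, -4.74 and -3.39 (-4.58 ± 0.25, adjusted p = 1.25e-10, limma). Slc2a2, the liver's glucose transporter, had -5.42, -4.65 and -3.65 (-4.55 ± 0.17). The channels of these 3, which were among the genes chosen for the largest falls, did not overlap. The others among the 15 largest falls were Gm4952, the bile acid and statin transporter gene Slco1b2, Car3, Cyp3a59, Bhmt, Cyp3a25, Cyp3a41b, Gys2, Arrdc3, Arg1, S100g and Cyp3a16, with fold changes from -4.26 to -3.69. The 5 Cyp3a genes are related members of a gene family, so that their probes may share signal. In RNA of whole cultures, fewer hepatocytes and less of these transcripts per hepatocyte cannot be told apart.

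**Figure D2:**
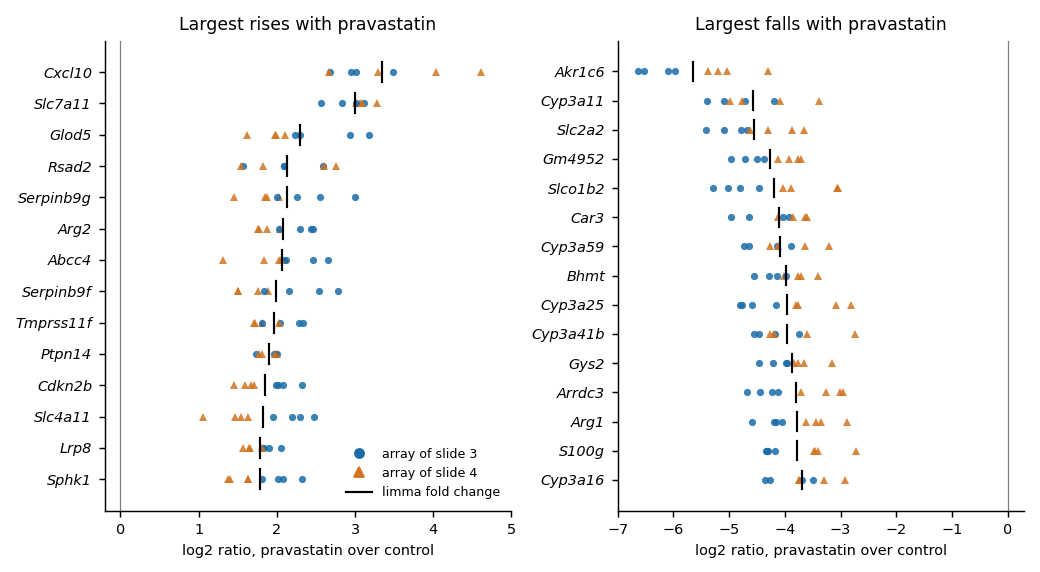
Log2 ratios of treated over control RNA (horizontal axis) for the genes with the largest rises, with the exception of 1 not reported, and the 15 with the largest falls; points are the 8 arrays, coloured by slide, and the bar is the limma log2 fold change. Cxcl10 reaches 4.61 at its highest and Akr1c6 -6.64 at its lowest. Every point lies on the same side of 0 as its gene's fold change, and the genes were chosen partly for the same sign on all 8 arrays.

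The Cyp3a11 promoter is shown because Cyp3a11 had the largest fall of all P450 genes and its window holds a core site of HNF4, CAAAGTCCA, in capitals, 109 bases before the start. HNF4 alpha is a nuclear receptor that drives much of the liver's gene expression. The window is chr5:145879855-145880104, minus strand (RefSeq, GRCm38.p6).
Cyp3a11: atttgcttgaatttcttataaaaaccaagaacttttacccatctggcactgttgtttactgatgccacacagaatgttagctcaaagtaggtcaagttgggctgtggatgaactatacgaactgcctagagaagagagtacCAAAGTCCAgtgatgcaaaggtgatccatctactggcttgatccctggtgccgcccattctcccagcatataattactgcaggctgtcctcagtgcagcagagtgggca
These letters, searched in either orientation, occurred in 0.384% of all windows and in 0.519% of those of genes tested. They were in 11 of 463 windows of genes that fell at least 2-fold (2.38%). None of 91 windows of genes that rose at least 2-fold held them, too few windows to tell at these rates. The 11 included Cyp3a16, Cyp3a41b, Cyp2c67 and Cyp2c68, whose windows are not independent of each other since they are copies in gene clusters. The site was in 2 of 31 windows of the P450 list and in 1 of 19 of the hepatocyte markers. It was in none of the 39 windows of plasma proteins and none of the 33 of coagulation and complement.

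Drug and steroid metabolism fell broadly. Of 36 P450 genes and their regulators 27 fell, 7 rose and 2 were not called, with a median of -1.23 and 20 falls of at least 2-fold. After the Cyp3a genes came Cyp4f14 (-2.90 ± 0.12) and Cyp2f2 (-2.88 ± 0.19). Nr1i3, which encodes the xenobiotic receptor CAR, fell by 1.93 ± 0.19 and Nr1i2, which encodes PXR, by 1.52 ± 0.07. Cyp1a1, the target of the dioxin receptor, went against the list, with ratios of 1.24, 1.83 and 1.93 (1.75 ± 0.14) and treated levels of 8.94 to 9.68 above control levels of 7.25 to 7.81. The receptor gene Ahr rose by 0.52 ± 0.07, Por, the electron donor of all microsomal P450s, by 0.46 ± 0.04, and Cyp2a4 by 0.67 ± 0.15. Cyp2b10, a common marker of CAR activity (-0.15 ± 0.12), and Cyp2b9 (-0.09 ± 0.14) were not called. Among 32 conjugating enzymes 27 fell and 2 rose (median -0.90). Ugt2b1 had ratios of -4.31, -3.36 and -2.30 (-3.30 ± 0.25), and Ugt3a2, Ugt2a3 and the glycine methyltransferase Gnmt fell by 2.65 ± 0.18, 2.46 ± 0.19 and 1.77 ± 0.13. Gsta2, a glutathione transferase of oxidative stress, rose by 0.93 ± 0.09 and Nnmt by 0.24 ± 0.03. Paralogues of the Ugt2b and Gst families may share probe signal.

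Most transporter genes fell, and exporters were among the exceptions. Of 30 transporter genes 24 fell, 3 rose and 3 were not called (median -1.13). Slco1b2, the anion transporter that takes up pravastatin itself, had ratios of -5.29, -4.24 and -3.05 (-4.20 ± 0.27), with treated levels of 8.43 to 9.05 and control levels of 11.59 to 14.11. Abcb11, the bile salt export pump, fell by 2.85 ± 0.15. The phosphate transporter gene Slc17a3 stood at -2.74 ± 0.12 and Slco2b1 at -2.67 ± 0.27. Abcc4, an exporter of the sinusoidal membrane, rose with ratios of 1.31, 2.07 and 2.65 (2.07 ± 0.15), and its treated levels of 13.64 to 14.42 did not overlap the control levels of 11.21 to 12.66. Abcc2, the canalicular exporter that carries pravastatin into bile, rose by 0.31 ± 0.05 and Slc22a7 by 0.18 ± 0.07. All 14 bile acid genes tested fell, with a median of -1.35. Baat, which joins bile acids to taurine, fell by 3.66 ± 0.15, Akr1d1 by 2.21 ± 0.19, Scp2 by 2.01 ± 0.11 and Nr1h4, the bile acid receptor FXR, by 2.0 ± 0.14. Cyp7a1 and Cyp8b1, the enzymes best known for controlling bile acid synthesis and its make-up, were too dim or lacked ratios and were not tested.

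Liver metabolism of nitrogen, sugars and fat followed the same direction. Of 40 genes of the urea cycle and amino acid breakdown 36 fell, 2 rose and 2 were not called, and the median of -1.5 was the lowest of the pathway lists. Bhmt, which remethylates homocysteine with betaine, had ratios of -4.55, -4.00 and -3.41 (-3.98 ± 0.20), and Arg1, the arginase of the urea cycle, had -4.59, -3.83 and -2.88 (-3.79 ± 0.23). Arg2, the mitochondrial arginase found mainly outside the liver, rose in the same RNA with ratios of 1.76, 2.04 and 2.47 (2.08 ± 0.08). Otc, of the urea cycle, stood at -3.25 ± 0.24. The rises were Got1 (0.16 ± 0.06), whose call was lost without replicate 3, 4 or 6, at 0.11 to 0.15, with the slide or the scan day as a block and in the fit of the pravastatin arrays alone, and Sdsl (0.15 ± 0.04), not called on slide 4.

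In glucose metabolism 25 of 33 genes fell and 5 rose (median -0.83), and most rises were of isoforms known from other tissues. Gys2, liver glycogen synthase, had ratios of -4.47, -3.89 and -3.16 (-3.88 ± 0.15). Pck1, of gluconeogenesis, fell by 3.10 ± 0.16. Slc2a1, the widespread glucose transporter, rose with ratios of 0.66, 0.96 and 1.2 (0.94 ± 0.05) while Slc2a2 fell. Pkm, the muscle type of pyruvate kinase, rose by 0.70 ± 0.07 while its liver counterpart Pklr fell by 0.84 ± 0.08, Hk2 rose by 0.31 ± 0.08, and Aldoa by 0.16 ± 0.04. The remaining gene that rose was the mitochondrial Pck2 (0.45 ± 0.07), with Pck1 falling. In fatty acid oxidation and ketone synthesis 27 of 31 genes fell, with the hormone Fgf21 at -2.32 ± 0.20, Bdh1 at -2.26 ± 0.08 and Acaa2 at -1.80 ± 0.11. Pdk4 was the gene that rose (0.18 ± 0.05, not called on slide 3), and Cyp4a14, Acot2 and Acads were not called.

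Of the 34 respiratory chain subunits all fell, by small amounts that depended on the scaling, since 34 fell with Agilent's ratios but only 3 with median centring (median -0.31 and -0.11). Atp5g1 had the largest fall, 0.62 ± 0.05, followed by Ndufa4 (0.50 ± 0.03), Ndufv2 (0.46 ± 0.03) and Uqcrc2 (0.42 ± 0.03). Cytosolic ribosomal protein genes moved the other way, with 29 of 32 rising, none falling and a median of 0.20. That count was 27 with Agilent's ratios (median 0.15), 31 with median centring (0.41) and 16 without the constant for the dye effect. Rps20 rose by 0.35 ± 0.03 (not called without the dye constant), Rpl12 by 0.31 ± 0.04 and Rps18 by 0.31 ± 0.03, and Rps2, Rps6 and Rpl3 were not called.

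The list of hepatocyte transcription factors fell in part, and it also holds factors not particular to hepatocytes, among them Cebpe. Of 30 tested, 21 fell, 6 rose and 3 were not called (median -0.32). Hnf4a, which encodes HNF4 alpha (chosen after its values were seen), had ratios of -1.57, -1.33 and -0.91 (-1.30 ± 0.09), with treated levels of 15.08 to 15.74 below control levels of 16.45 to 17.10. Nr1h4, Nr1i3, Cebpe (-1.69 ± 0.14) and Creb3l3 (-1.58 ± 0.10) fell most, and Ppara, the receptor that drives fatty acid oxidation, fell by 0.86 ± 0.22 with -1.48 on slide 3 and -0.24 on slide 4, where it was not called. Foxa2 (0.09 ± 0.04) and Onecut2 (0.18 ± 0.08) were not called. Cebpd and Cebpb, factors of the acute response, rose by 0.51 ± 0.08 and 0.50 ± 0.05, Tox3 by 0.75 ± 0.06, and Nr1d2, Zhx2 and Foxa1 by at most 0.20.

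Secreted proteins of the liver fell with few exceptions. Of 49 plasma protein genes 44 fell, 2 rose and 3 were not called (median -1.14). Leap2, an antimicrobial peptide that also antagonises the ghrelin receptor, had ratios of -4.08, -3.60 and -3.11 (-3.58 ± 0.11). Hrg fell by 3.37 ± 0.13, Serpinc1, antithrombin, by 3.18 ± 0.16 and Mug1 by 2.35 ± 0.11. Hamp, the iron hormone hepcidin, rose against the list by 1.51 ± 0.19, but its ratios ranged from 0.24 to 2.40 and its channels overlapped. Igf1 rose by 0.77 ± 0.12. In coagulation and complement 38 of 45 fell and 3 rose (median -0.85). C8a, a chain of the membrane attack complex, had ratios of -3.54, -3.33 and -3.14 (-3.33 ± 0.08), and C9 and Mbl1 stood at -3.08 ± 0.08 and -2.86 ± 0.12. Thbd (thrombomodulin) rose by 1.05 ± 0.15, Plaur, the urokinase receptor, by 0.84 ± 0.06, and Cpb2 by 0.42 ± 0.06.

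**Figure D3:**
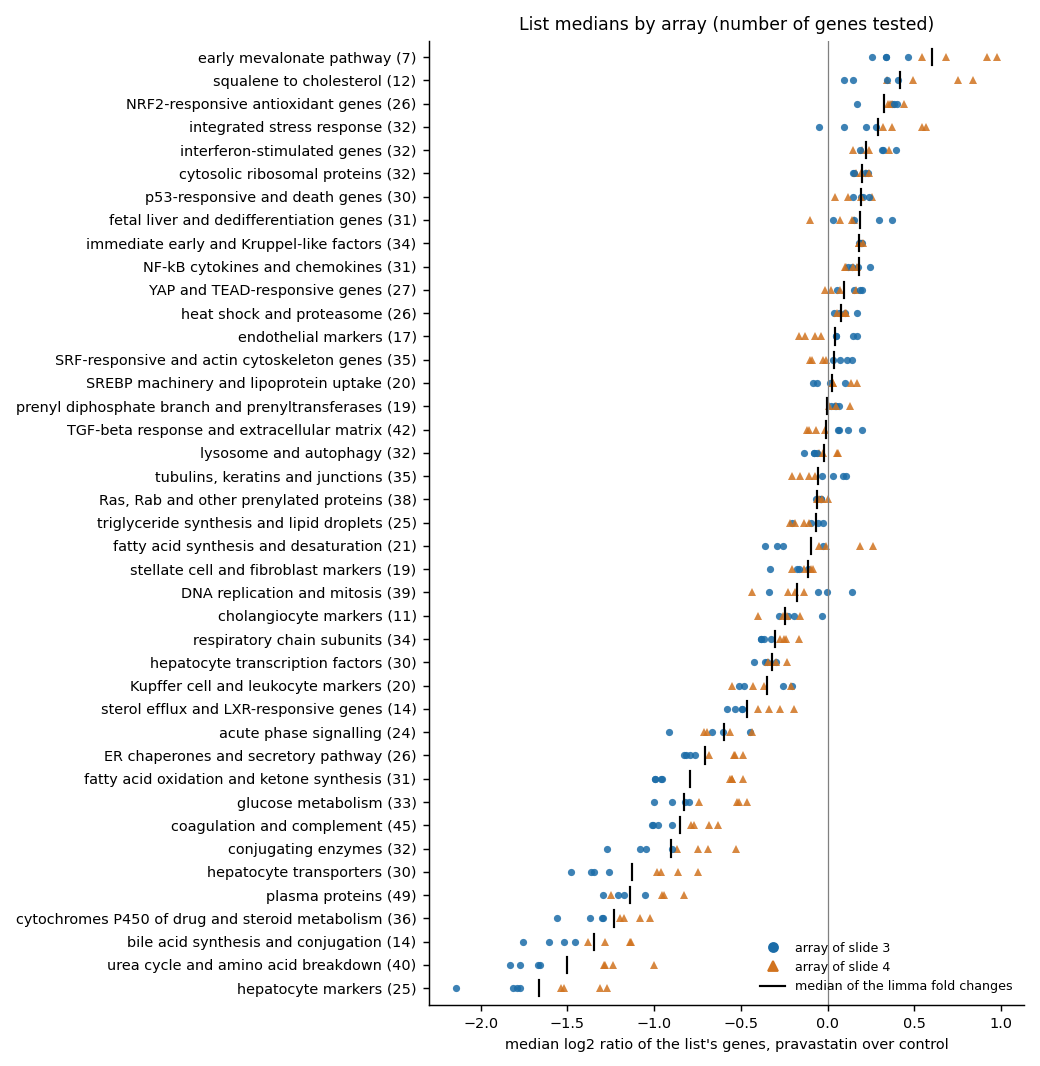
Median log2 ratio of treated over control RNA (horizontal axis) of the genes of the lists described, with the number of genes tested in parentheses; points are the 8 arrays, coloured by slide, and the bar is the median of the limma fold changes. Hepatocyte markers at the bottom lie between -2.14 and -1.27 on the arrays, the early mevalonate genes at the top between 0.26 and 0.98.

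The largest rise of the experiment was that of a chemokine gene. Cxcl10, which attracts T cells and is induced by interferons, had ratios of 2.67, 3.15 and 4.61 (3.34 ± 0.18, a 10.1-fold rise, adjusted p = 1.12e-10, limma), with treated levels of 13.92 to 15.58 and control levels of 10.96 to 12.43. Rsad2, the antiviral enzyme viperin, had ratios of 1.54, 2.09 and 2.75 (2.13 ± 0.16), also without overlap. Of 32 interferon-stimulated genes 21 rose, 3 fell and 8 were not called (median 0.22), and 6 rose at least 2-fold. Gbp3, a guanylate-binding protein, rose by 1.29 ± 0.16, and the oligoadenylate synthase relative Oasl1 by 1.12 ± 0.09. Ifit1 (chosen after its values were seen) rose by 1.1 ± 0.22 with ratios from 0.19 to 2.06. Among the factors of the interferon signal, Irf1 fell by 0.19 ± 0.04 (-0.04 with median centring), and Irf9 (0.02 ± 0.04) was not called. The other genes that fell were the GTPase Iigp1 (-0.75 ± 0.05) and Ddx58, which encodes the RNA sensor RIG-I (-0.07 ± 0.03). With median centring Iigp1 was the only 1 of the 3 falls called.

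The promoters of Cxcl10 and Rsad2 are shown because these genes had the largest rises of the list and their windows carry the interferon response element searched for, TTTC and TTTC with 2 bases between them, in either orientation. It is in capitals 213 bases before the start of Cxcl10 and 120 bases before that of Rsad2. The second stretch in capitals of Cxcl10, 159 bases before the start, is an NF-kB site, GGGAA and TTCC with 1 base between them. The windows are chr5:92348890-92349139 and chr12:26456453-26456702, both minus strand (RefSeq, GRCm38.p6).
Cxcl10: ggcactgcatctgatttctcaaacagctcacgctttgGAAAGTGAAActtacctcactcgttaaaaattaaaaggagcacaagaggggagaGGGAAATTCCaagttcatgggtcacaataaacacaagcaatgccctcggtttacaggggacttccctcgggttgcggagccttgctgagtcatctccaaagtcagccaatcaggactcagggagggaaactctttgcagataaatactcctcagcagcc
Rsad2: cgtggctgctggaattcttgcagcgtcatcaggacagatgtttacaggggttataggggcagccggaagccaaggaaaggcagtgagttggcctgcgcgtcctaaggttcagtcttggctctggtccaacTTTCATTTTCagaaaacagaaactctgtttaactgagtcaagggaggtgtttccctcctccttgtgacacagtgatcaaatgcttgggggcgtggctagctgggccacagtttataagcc
The interferon element was present in 13 of 28 windows of interferon-stimulated genes (46.4%) and in 2.98% of all windows. The NF-kB site was present in 0.283% of all windows and in 3 of 21 of the NF-kB list, those of Cxcl1, Cxcl2 and Nfkbia. Among genes tested the shares were 3.34% for the interferon element and 0.385% for the NF-kB site. These lists hold known targets of the same signals, so that the lists and the elements are not independent.

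NF-kB targets rose and fell side by side. Of 31 cytokine, chemokine and pathway genes 16 rose, 8 fell and 7 were not called (median 0.18). Cxcl16, a chemokine with a membrane-bound form, had ratios of 0.94, 1.31 and 1.63 (1.28 ± 0.07). Ccl3, Cxcl2 and Ccl5 rose by 0.61 ± 0.07, 0.55 ± 0.06 and 0.52 ± 0.07, and the NF-kB precursors Nfkb2 and Nfkb1 by 0.44 ± 0.04 and 0.43 ± 0.05. Ccl7 fell by 0.65 ± 0.08, Il1rn, the interleukin-1 receptor antagonist, by 0.62 ± 0.08, and Cxcl1 by 0.58 ± 0.07, while Tnf (0.03 ± 0.03) was not called. Acute phase genes of the hepatocyte fell, 18 of 24, with 2 rising (median -0.60). Fgg, Fga and Crp fell by 2.67 ± 0.11, 2.08 ± 0.07 and 2.04 ± 0.09, whereas Hamp and the lipopolysaccharide co-receptor Cd14 (0.92 ± 0.11) rose. Beside these values, 15 of 20 markers of Kupffer cells and leukocytes, which also make chemokines, fell and none rose (median -0.35), and their part in the changes was not tested.

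Antioxidant genes gave the second of the large rises. Slc7a11, the cystine importer of glutathione synthesis, had ratios of 2.56, 3.04 and 3.28 (3.0 ± 0.09, a 7.98-fold rise), with treated levels of 13.56 to 14.11 above control levels of 10.61 to 11.18. Of 26 genes responsive to NRF2, the transcription factor of the antioxidant response, 18 rose, 3 fell and 5 were not called (median 0.32). Gclc, which makes the first bond of glutathione, had ratios of 1.02, 1.53 and 1.69 (1.4 ± 0.08), and Cbr3, Gpx2 and Txnrd1 rose by 1.32 ± 0.09, 1.16 ± 0.05 and 1.03 ± 0.04. Nqo1 and Hmox1, often used as markers of the response, rose less, by 0.46 ± 0.06 and 0.42 ± 0.06, and Gclm, the partner of Gclc, was not called (-0.07 ± 0.05). Nfe2l2, the gene of NRF2, fell by 0.67 ± 0.05 with ratios from -0.99 to -0.40, and its inhibitor gene Keap1 fell by 0.31 ± 0.08. Ephx1 fell by 0.49 ± 0.09 (-0.26 with median centring). With median centring the falls of Keap1 and Ephx1 were not called. The antioxidant response element TGACNNNGC, searched in either orientation, was in 6 of 22 windows (27.3%). It was in 10.2% of all windows and in 13.5% of those of genes tested. Here too the list and the element are not independent.

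The arms of the stress response separated. Of 32 genes of the integrated stress response, the program of ATF4, 21 rose, 5 fell and 6 were not called (median 0.29), with list medians of 0.15 for slide 3 and 0.45 for slide 4. Ddit3, which encodes the death factor CHOP, had ratios of 0.07, 0.72 and 1.63 (0.85 ± 0.14), with 0.46 on slide 3 and 1.23 on slide 4. The amino acid transporters Slc7a3 and Slc7a1 rose by 0.95 ± 0.09 and 0.67 ± 0.04 and Trib3 by 0.74 ± 0.11. Fgf21, Stbd1, Vldlr, Atf5 and Mars1 fell. The chaperones of the endoplasmic reticulum, which rise in the unfolded protein response, fell instead. Of 26 genes 22 fell, 1 rose and 3 were not called (median -0.71). In 19 of 26 the channels did not overlap, against 20.2% of all genes tested. Herpud1 fell by 1.76 ± 0.18, Hsp90b1 had ratios of -1.5, -1.25 and -1.13 (-1.29 ± 0.06), and Sdf2l1 and Manf fell by 1.22 ± 0.05 and 1.1 ± 0.05. Hspa5, the master chaperone BiP (chosen after its values were seen), had ratios of -1.09, -0.94 and -0.58 (-0.89 ± 0.05). Crebrf rose by 0.54 ± 0.05, and the sensor genes Atf6, Eif2ak3 and Ern1 were not called.

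The promoters of Hsp90b1 and Hspa5 are shown because chaperone genes fell together and share an uncommon element, the endoplasmic reticulum stress element, CCAAT and CCACG with a fixed gap between them, in capitals and searched in either orientation. It starts 212 and 107 bases before the start of Hsp90b1 and 65 bases before that of Hspa5. The windows are chr10:86705445-86705694, minus strand, and chr2:34771840-34772089, plus strand (RefSeq, GRCm38.p6).
Hsp90b1: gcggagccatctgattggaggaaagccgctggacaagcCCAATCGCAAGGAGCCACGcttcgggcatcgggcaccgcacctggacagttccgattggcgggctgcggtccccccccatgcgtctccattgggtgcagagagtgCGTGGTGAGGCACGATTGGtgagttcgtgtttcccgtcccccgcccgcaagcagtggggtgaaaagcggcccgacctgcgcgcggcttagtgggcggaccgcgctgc
Hspa5: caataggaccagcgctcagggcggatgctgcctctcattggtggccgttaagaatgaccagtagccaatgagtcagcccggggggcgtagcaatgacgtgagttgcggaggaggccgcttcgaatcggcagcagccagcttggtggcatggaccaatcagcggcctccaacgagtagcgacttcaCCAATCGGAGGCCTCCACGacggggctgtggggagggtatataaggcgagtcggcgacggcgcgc
The element was present in 8 of 23 windows of the list (34.8%) and in 0.113% of all windows. The 8 genes were Calr, Canx, Creld2, Dnajc3, Hsp90b1, Hspa5, Pdia6 and Syvn1, which textbooks name among the targets of the unfolded protein response, so that the list and the element are not independent.

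Cytosolic stress and death genes moved less. Among 26 heat shock and proteasome genes 14 rose, 3 fell and 9 were not called (median 0.08). The small heat shock protein Hspb1 rose by 0.56 ± 0.05, the proteasome gene Psmd14 by 0.40 ± 0.05, and Hsp90aa1 and Hsp90ab1 by 0.31 ± 0.06 and 0.30 ± 0.03. Bag3 and the immunoproteasome gene Psmb9 fell by 0.34 ± 0.03 and 0.33 ± 0.03, and Hspa1a by 0.16 ± 0.07. None of these 3 falls was called with median centring, where Bag3 was at -0.19 and Psmb9 at -0.22. Of 30 p53-responsive and death genes 19 rose, 6 fell and 5 were not called (median 0.19). Trp53inp1, Plk2 and the death genes Bcl2l11 (Bim), Tnfrsf10b (a TRAIL receptor) and Bbc3 (Puma) rose by 0.73 ± 0.05, 0.69 ± 0.05, 0.68 ± 0.04, 0.58 ± 0.04 and 0.51 ± 0.03. The death receptor gene Fas fell by 0.97 ± 0.11 and Sesn1 by 0.50 ± 0.05. Among immediate early and Krüppel-like factors 19 of 34 rose and 8 fell (median 0.18). Fosl1 (ratios of 0.77, 1.59 and 1.84), Klf4, Dusp4 and Klf5 rose by 1.5 ± 0.09, 1.19 ± 0.08, 1.13 ± 0.09 and 1.07 ± 0.17, and Myc by 1.05 ± 0.04. Klf10 and Klf15, the latter a regulator of amino acid use in liver, fell by 2.08 ± 0.14 and 1.84 ± 0.18, and the classical early genes Egr1, Jun and Fos fell by 0.72 ± 0.05, 0.47 ± 0.10 and 0.31 ± 0.05.

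The cell cycle list was led by an inhibitor. Cdkn2b, the cyclin-dependent kinase inhibitor p15, had ratios of 1.46, 1.85 and 2.33 (1.85 ± 0.10), with treated levels of 13.49 to 13.90 and control levels of 11.50 to 12.19. Of 39 genes of DNA replication and mitosis 18 fell, 4 rose and 17 were not called (median -0.17), and the counts moved with the slide, to 7 lower and 9 higher on slide 3 and 19 and 4 on slide 4. They were 11 lower and 8 higher with median centring, 13 and 9 with Agilent's ratios, 10 and 4 with the slide as a random block and 9 and 4 with the scan day as one. Tk1, thymidine kinase, fell on all arrays with ratios of -1.25, -1.02 and -0.92 (-1.07 ± 0.04), Rrm2 by 0.85 ± 0.10 and Mki67 by 0.35 ± 0.13. Birc5 fell by 0.50 ± 0.13 and was not called on slide 3. The other rises were Cdk4 (0.34 ± 0.07), Cdt1 and Cdk2.

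Genes of cell shape and attachment moved in both directions within families. Tubb2b and Tuba1a, tubulins of growing or fetal cells, had ratios of 0.87 to 2.20 and 0.76 to 2.18 (1.53 ± 0.15 and 1.41 ± 0.15), while Tubb2a fell by 0.81 ± 0.04, though tubulin probes may share signal. Cldn1, a claudin of the hepatocyte's tight junction, fell by 1.96 ± 0.12 and Cldn4 rose by 0.94 ± 0.08. The gap junction genes Gjb1 and Gjb2 fell by 1.75 ± 0.08 and 1.55 ± 0.15. Of 35 tubulin, keratin and junction genes 10 rose and 12 fell, with a median of -0.06 that turned positive with median centring and on slide 3. In the fetal and dedifferentiation list 15 of 31 rose and 11 fell (median 0.18), with Cd44 (1.1 ± 0.12), Anxa3 (0.77 ± 0.09), Timp1 (0.72 ± 0.10) and Lgals1 (0.54 ± 0.10) rising and Krt23 (-1.16 ± 0.16), Dlk1 (-0.93 ± 0.26, not called on slide 4) and Afp (-0.55 ± 0.11) falling. The integrin genes Itga3 and Itga2 and the receptor gene Tgfbr1 rose by 1.2 ± 0.11, 0.65 ± 0.07 and 0.64 ± 0.06. Id2 and Col18a1 fell by 1.15 ± 0.06 and 1.02 ± 0.06. Of the 42 genes of this matrix and TGF-beta list 16 rose and 10 fell, with a median of -0.01 that was positive under other scalings, on slide 3, with array weights and without replicate 3, 4, 6, 7 or 8. Of 32 lysosome and autophagy genes 10 rose and 13 fell (median -0.02, positive with Agilent's ratios and median centring). The glycoprotein gene Gpnmb was at 0.97 ± 0.09, the autophagy receptor Sqstm1 at 0.51 ± 0.04 and the acid lipase Lipa at -0.98 ± 0.06. In the tubulin, matrix and lysosome lists 62.9%, 61.9% and 71.9% were called, close to the 66.7% over all genes tested.

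Several of the largest rises belonged to no list. Glod5, Serpinb9g, Serpinb9f, Tmprss11f, Slc4a11, Lrp8 and Sphk1, which makes sphingosine 1-phosphate, rose by 1.78 to 2.29. Lrp8, an apolipoprotein E receptor, had ratios of 1.56, 1.81 and 2.05 (1.78 ± 0.06). All 7 had channels that did not overlap, against 20.2% of all genes tested. They were chosen as large rises of the same sign on 8 arrays, so their separate channels add little. The Serpinb9 copies may share probe signal.

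The markers of the labelled cell type were present and fell. All 25 hepatocyte markers were well above background on every array in both channels, and all 25 fell (24 with the slide as a random block, 22 with median centring). The median log2 intensity of these genes was 16.66 to 17.10 in the control channels of slide 3, 16.002 to 16.87 in those of slide 4, and 14.45 to 15.04 in the treated channels of both slides. Their summed level ran from 19.84 to 20.77 (log2) in treated and from 21.46 to 22.07 in control RNA, without overlap. Alb, albumin, fell by 1.04 ± 0.08 and Ttr by 1.66 ± 0.09.

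Markers of other liver cells were measurable in the same cultures. Of 20 Kupffer cell and leukocyte markers 15 fell, none rose and 5 were not called, with a median of -0.35, and all 20 were well above background in every channel. Their median level was 10.62 to 10.68 in controls of slide 3 and 9.82 to 10.13 in controls of slide 4. Vsig4 fell by 1.08 ± 0.08, the complement genes C1qa and C1qc by 0.86 ± 0.06 and 0.73 ± 0.05, and Clec4f by 0.71 ± 0.06, while Ptprc, the pan-leukocyte gene, was not called (0.06 ± 0.03). Of 19 stellate cell and fibroblast markers 10 fell and 2 rose (Ecm1 by 1.1 ± 0.10, Loxl1 by 0.23 ± 0.06, the latter not called on slide 3), with a median of -0.12. Gpc3, Cygb, Ngfr and Lum fell by 0.57 ± 0.07, 0.51 ± 0.08, 0.47 ± 0.08 and 0.44 ± 0.12, Lum not with median centring (-0.32) and not on slide 4. Of 17 endothelial markers 5 rose and 5 fell (median 0.04, and -0.10 on slide 4). The share called was 58.8%, against 66.7% over all genes tested. Stab2 and Ehd3 fell by 0.59 ± 0.06 and 0.60 ± 0.07. The rises were Clec4g, Oit3, Eng, Stab1 and Tek, of which Clec4g (0.27 ± 0.11), Oit3 (0.26 ± 0.08) and Stab1 (0.15 ± 0.04) were not called with the slide as a random block, and Clec4g not without replicate 1, 5 or 7 (0.19 to 0.27). Of 11 cholangiocyte markers 6 fell, Sox9 by 0.55 ± 0.06, and 1, Epcam, rose by 0.34 ± 0.05 (median -0.25). The part of these cells in the changes was not tested.

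**Figure D4:**
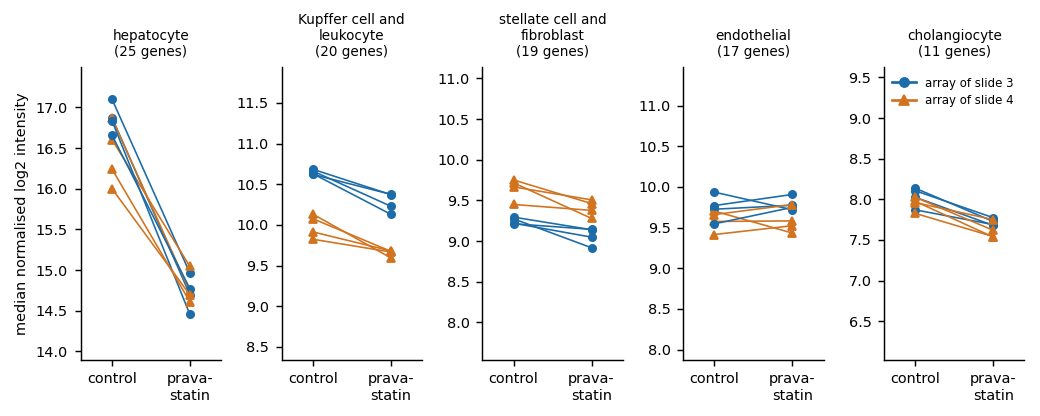
Median normalised log2 intensity (vertical axis) of the marker genes of 5 liver cell types in the control and the pravastatin channel; each line joins the channels of an array and is coloured by slide, and each panel has its own range of equal width. The hepatocyte lines drop from 16.002 to 17.10 in control to 14.45 to 15.04 with pravastatin, and the Kupffer cell lines separate by slide.

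The size of the response differed between the slides, which were also scanned on different days and held different replicate cultures. Slide, day and culture cannot be told apart. The difference was called for 3277 genes (21.8%), and this count fell to 143 with median centring. Of the 604 genes that fell at least 2-fold, 565 fell more on slide 3, with medians of -1.69 on slide 3 and -1.25 on slide 4, and all 604 were called with the same sign on both. Of the 131 that rose at least 2-fold, 107 rose more on slide 3 (medians 1.39 and 1.15), and all were called on both. Among the falls the range of levels was mostly wider in the control channel. These genes were chosen for a lower treated level, and an effect of the level on the range was not tested. For 515 of the 604 (85.3%) the range of control levels over the 8 arrays was wider than that of treated levels. Their median ranges were 1.04 in control and 0.61 in treated channels. The share was 61.8% among the 131 rises, with median ranges of 0.758 in control and 0.577 in treated channels. Over all genes tested it was 63.5%. Ces1f, a carboxylesterase, had the largest difference, -3.19 on slide 3 and -1.46 on slide 4, and its control levels ran from 9.64 to 12.63 against treated levels of 8.50 to 9.39. Akr1c14, Slco2b1, Slc17a8, Mat1a, Dlk1, Sord and Slco1b2 differed in the same way. Tnks and Erc1 had opposite signs, 0.83 and -0.71 for Tnks and 0.36 and -1.07 for Erc1, with no call over both slides together. The sterol genes ran against this order, with larger rises on slide 4.

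**Figure D5:**
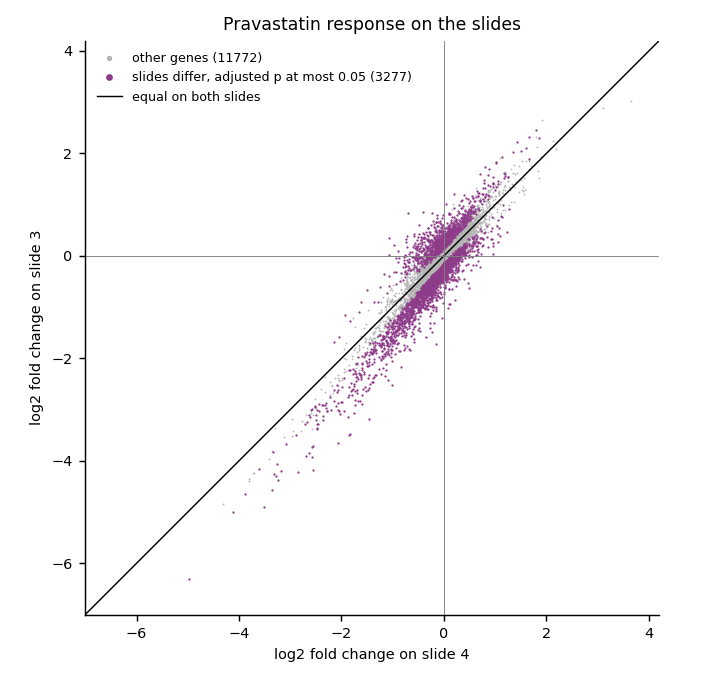
Log2 fold change on slide 3 (vertical axis) against that on slide 4 (horizontal axis) for the 15049 genes tested; 3277 genes whose slides differed at an adjusted p of 0.05 are in purple, and the line marks equal values. Large falls lie below the line, with larger falls on slide 3.

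SQ1 is squalestatin, which inhibits squalene synthase and so blocks the sterol branch after the prenyl branch has left it. The doses and the agents differ, and the controls may be shared, so the values stand side by side. SQ1 lay on slides 1 and 2 and pravastatin on slides 3 and 4. Slide 3 was also scanned on another day than the other slides. Drug and slide therefore cannot be told apart in this comparison. Pravastatin and SQ1 differed in 8003 genes (53.2%; limma contrast of the drugs, adjusted p at most 0.05), with 3597 higher (23.9%) and 4406 lower (29.3%) with pravastatin, and with median centring the count for pravastatin minus SQ1 was 3696. All 7 trunk genes and all 12 genes from squalene to cholesterol were lower with pravastatin. Hmgcs1 was at 0.38 with pravastatin and 1.38 with SQ1. Cyp3a11 was at -4.58 with pravastatin and 0.23 with SQ1, Slc2a2 at -4.55 and -0.81, Slc7a11 at 3.0 and 0.78, and Cxcl10 at 3.34 and 0.52. Some lists moved the same way with SQ1 and others did not. Of 32 interferon-stimulated genes 21 rose and 2 fell with SQ1 (median 0.21). Falls outnumbered rises with SQ1 in plasma proteins (33 and 1 of 49), chaperones (18 and 1 of 26) and hepatocyte markers (13 and 0 of 25). Of 36 P450 genes 15 rose and 5 fell with SQ1, and of 32 integrated stress response genes 1 rose and 15 fell. Over all genes tested 2374 rose and 2490 fell with SQ1. S100g, a calcium-binding protein gene, was at -3.78 with pravastatin and -2.97 with SQ1 (difference -0.81, adjusted p = 0.0109, limma).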

How the data were processed

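RNA of pravastatin-treated and untreated hepatocytes was compared on 8 Agilent 44K 2-colour arrays. The deposited scanner files hold median spot and background intensity per channel, read by the authors with Agilent Feature Extraction 11.0.1.1 per the file headers. They also hold log10 ratios of red over green that Feature Extraction computed after background subtraction and dye normalisation, per the file headers. A further table deposited with the series holds log2 ratios of treated over control, a scale and direction found by comparison with the scanner files, while its centring is unknown.

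Spot medians were background-corrected (normexp, offset 50) and loess-normalised in limma 3.58.1 (R 4.3.3), and spots of a probe were averaged. Of 39429 probes, 27234 were named through RefSeq accessions, and each gene was represented by its brightest probe. Genes entered the test when the scanner called the probe well above background in 4 or more treated channels of either drug, or in 8 or more control channels, and gave ratios on 7 or more arrays per drug. One limma model over the 16 arrays gave each drug's fold change and a dye constant (13 residual degrees of freedom), with Benjamini-Hochberg adjustment over all genes and a threshold of 0.05. Intensities are normalised per array, and no probe's level was set against another's.

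Same-numbered arrays of the drugs deviated together (correlations of 0.221 to 0.718 for the 8 numbers), and a replicate block was tried as an alternative. The main model had no pairing term. Only 4 of 8 correlated best with their own number, and the highest correlations with another number were 0.308 to 0.762. A number also set the dye orientation and went with the slide, so that shared cultures cannot be told apart from these. The members and lists were chosen with earlier results of these data known. Named genes were the 15 largest rises and falls with the same sign on 8 arrays, the leading called members of each list, the 10 largest slide differences and the members of small counts. Other list members named in the text, among them Hmgcs1, Sqle, Insig1, Hnf4a, Ppara, Ifit1, Myc and Hspa5, were chosen after their values were seen. Alternatives covered the scaling, filter, probe choice, dye term, slide, scan day, replicate block and each array left out. Some genes and a list are not reported here. The scripts were tested on simulated data.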

Additional observations from a re-analysis of the deposited data

Results flagged for a closer look

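For 7 named genes and a gene list, the arrays included 1 that lay far from the others, by the gap to the nearest array over the whole range, out of 251 named entries and 42 lists examined. Chance gives such a gap in about 1 of 20 groups. Srebf2 had a log2 ratio of 0.934 on replicate 7, against 0.6487 to 0.7569 on the others. Cyp1a1 had 1.244 on replicate 5, against 1.672 to 1.93. On replicate 4 Cyp2a4 had 1.279, against 0.3067 to 0.7573, and Fosl1 had 0.765, against 1.404 to 1.835. Iigp1 had -1.096 on replicate 3, with the others between -0.7841 and -0.5801. Id2 had -1.508 on replicate 2, with the others between -1.198 and -0.9602. On replicate 6 Stab2 had -0.2897, with the others between -0.7221 and -0.5274, and the median of the NRF2-responsive antioxidant genes was 0.1695, against 0.3503 to 0.4401. In all 8 cases the sign was the same on every array.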

How the results depend on the processing

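The count for pravastatin against control was 16479 when each of 25821 probes was tested by itself, and between 7171 (median centring) and 10709 (Agilent's ratios) under the other scalings, filters and models. Leaving out an array gave 9613 to 10021. The pravastatin response on 1 slide against the other was called for 143 genes with median centring and for 2306 to 3057 with an array left out. The count for pravastatin minus SQ1 was 3696 with median centring and 7594 to 8270 with an array left out. The cause of the lower counts was not tested. With the replicate block the counts were 9866, 3197 and 9628, none changed by over 1.5 times. The value of gene Tnks was -0.7063 on slide 4, -0.08698 to 0.2299 with an array left out, and 0.0632 over all arrays, and that of gene Erc1 was 0.3563 on slide 3. The depth of an array is set by signal over background, and 5610 of 20659 named genes were not tested for that reason or for lack of ratios. With median centring the falls, and in some lists the rises, of further lists also changed by over 1.5 times: rises and falls were 22 and 2 in the integrated stress response, 20 and 2 in the p53 list, 19 and 5 in the immediate early list, 18 and 5 in the NF-kB list, 4 and 14 in the acute phase list, 18 and 7 in the fetal list, 11 and 5 in the lysosome list, and 3 and 5 among stellate markers. Endothelial markers gave 1 and 4 with the slide as a random block and 7 and 3 with Agilent's ratios, the matrix list 15 and 17 on slide 4, the coagulation list 5 and 37 on slide 3, and glucose metabolism 3 and 24 on slide 4.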
